A study of Solanum lycopersicum with 8 samples.

Results

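Light receptors and the transcription factors that act below them were followed in type VI trichome glands and in the leaf that bears them, in tomato (Solanum lycopersicum, cultivar M82). The 10 genes were taken by ID from the 34725 genes in the count files: the phytochromes PHYA, PHYB1 and PHYB2, the cryptochromes CRY1a and CRY2, the bZIP factor HY5, the bHLH factors PIF1a and PIF4, and the GARP factors GLK1 and GLK2. All 10 IDs were found. The names of 8 of them also stand in a RefSeq gene table at a matching chromosome and relative position, while PIF1a and PIF4 carry the name under which they were listed.

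Each tissue had 4 RNA-seq libraries, 1 from each of 4 independent collections of plants 5 weeks old, grown at 28 °C and 250 µE. Libraries with the same replicate number are taken below as 1 collection, a match inferred from the numbers. The leaf samples were leaves from which the hairs had been scraped by hand, and they are labelled as the af (anthocyanin free) mutant. The trichome samples were isolated gland cells, labelled as complemented line 4, which is a single line. By the protocols, however, the scraped leaves were those of the plants that gave the glands. If the genotype labels hold, tissue and genotype cannot be told apart in any comparison here. CHI1 (Solyc05g010320), the chalcone isomerase gene mutated in af, ran from 99.2 to 283.7 CPM in leaf and from 1421 to 1687 in trichome libraries, a transcript level that does not by itself give the genotype. Gene counts came to 19209754 to 34941715 per leaf library and 24596280 to 26514416 per trichome library.

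Phytochromes sense red and far-red light, and cryptochromes sense blue light. In the light these receptors restrain the COP1 ubiquitin ligase, which otherwise sends HY5 to degradation, and phytochromes also trigger the loss of PIF factors. HY5 promotes light-dependent development, PIFs hold parts of it back, and GLK factors switch on genes for chlorophyll synthesis and light harvesting as chloroplasts form. The glands of type VI hairs are secretory cells that hold plastids and make terpenes and flavonoids.

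Levels below are read counts scaled to library size with TMM factors (CPM), which are not corrected for gene length, so they compare the same gene between samples and never 1 gene with another. Both GLK genes, PIF4, CRY2, PHYB2 and CRY1a were lower in trichome libraries, HY5 and PHYA were higher, and PHYB1 and PIF1a did not pass the test. So 8 of the 10 genes were called by edgeR's quasi-likelihood test at an adjusted p under 0.05. Across all 20409 genes tested, 72.4% were called, 33.9% as higher and 38.5% as lower in trichome, and the members' count is read against these shares. DESeq2 called 9 of the 10 (74.3% of all genes), limma-voom 8 (72.6%), edgeR with library size alone 9 (66.7%) and edgeR with the collection as a block all 10 (71.2%). The libraries of the tissues did not overlap for 8 of the 10 genes, against 68.3% of all tested genes. The median log2 fold change of the 10 was -1.59, and that of all tested genes was -0.09. In bulk RNA, fewer cells of a type and less RNA per cell cannot be told apart.

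**Figure D1:**
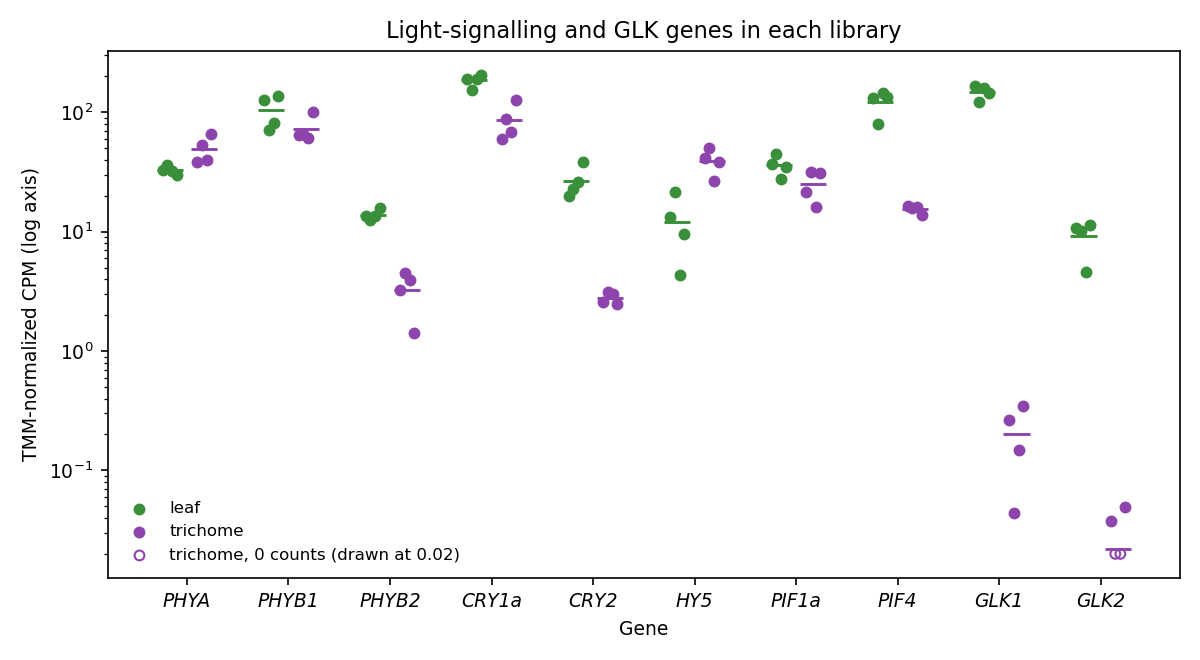
TMM-normalized CPM (log axis) of the 10 genes in each of the 4 leaf (green) and 4 trichome (purple) libraries, with a line at each mean; open circles are libraries with 0 counts, drawn at 0.02. The trichome points of GLK1 and GLK2 lie between 0 and 0.345 CPM, below all leaf points, while HY5 and PHYA lie above theirs. Levels are not length-corrected, so heights of different genes cannot be compared.

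GLK1 (Solyc07g053630, chromosome 7), the GLK copy known to act in tomato leaves, stood at 165.5, 122.1, 159.8 and 144.6 CPM in the 4 leaf libraries. In the trichome libraries it had 7, 1, 4 and 7 reads, or 0.264, 0.0438, 0.148 and 0.345 CPM. GLK1 was thus near the detection limit in all 4 gland libraries, where the 3 reads that a count of 0 allows stand for 0.111 to 0.148 CPM. The mean fell from 148.0 ± 19.4 to 0.200 ± 0.132 CPM (SD, n = 4 each), which is 0.135% of the leaf level. The log2 fold change was -9.52 (approximate SE 0.40, edgeR adjusted p = 3.12e-07), and 1.11% of tested genes had a lower one. Summed over libraries, GLK1 had 16798 reads in leaf and 19 in trichome, a ratio per gene count of 860 (exact 95% interval 551 to 1430, counting error only).

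GLK2 (Solyc10g008160, chromosome 10), the copy known from the uniform ripening locus of tomato fruit, was read in every leaf library and almost unread in glands. It had 10.7, 10.2, 4.62 and 11.3 CPM in leaf. The trichome libraries held 1, 0, 0 and 1 reads. Leaf replicate 3 was below the other leaf libraries, and the tissues did not overlap. The ratio of summed reads per gene count, 1025 in leaf to 2 in trichome, was 499 with an exact 95% interval of 138 to 4124 (counting error only). The fitted log2 fold change was -8.49 (SE 0.61, edgeR adjusted p = 2.92e-06), and with 2 reads in the glands its size depends on the constant that edgeR adds to counts.

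Genes that mark cell types were set beside these values, and they did not all move the same way. The 4 mesophyll markers (3 Rubisco small subunit genes and the light-harvesting gene CAB4) had reads in all libraries and summed to 19913 to 28404 CPM in leaf and 1508 to 2180 in trichome. In trichome RBCS-2A kept 6.72% of its leaf level, RBCS-1 6.05%, CAB4 11.5% and RBCS-3B 0.520%, each a larger share than the 0.135% of GLK1. The phloem loader SUT1 fell from 109.6 to 243.4 CPM in leaf to 1.11 to 2.32 in trichome. The 4 gland markers (TPS12, MTS1, EOT1 and MYC1) summed to 88.5 to 154.9 CPM in leaf and 6199 to 10628 in trichome. The 2 acylsugar genes ASAT1 and ASAT3, which mark tip cells of other glandular hairs, summed to 0.459 to 8.65 and 55.5 to 105.9. ASAT2 and ASAT4, listed with them, had no symbol in the RefSeq table and were not used. The sums of the 3 cuticle markers of epidermis overlapped, at 370.4 to 588.1 CPM in leaf and 371.7 to 620.7 in trichome. Taken singly, each of these markers passed the test, but not in the same direction. CER6 rose from a mean of 146.5 CPM in leaf to 299.4 in trichome. CD2 fell from 112.03 to 55.9 CPM and CD1 from 252.6 to 113.4, and only for CD1 did the libraries overlap. The part of any of these cell types in the results was not tested.

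HY5 (Solyc08g061130, chromosome 8) was the member with the larger rise. Leaf libraries held 13.2, 21.5, 4.37 and 9.54 CPM, and trichome libraries 41.4, 50.2, 26.4 and 38.6. The lowest gland library was above the highest leaf library, and HY5 was higher in trichome in all 4 collections. The mean rose from 12.2 ± 7.20 to 39.1 ± 9.81 CPM (SD, n = 4 each), or 1.69 as log2 fold change (SE 0.42, edgeR adjusted p = 0.0056). The spread among leaf libraries was wide, with the highest 4.91 times the lowest.

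Of 4 genes of the complexes that act on HY5 protein, none passed the test as higher. COP1 (Solyc12g005950), the ubiquitin ligase that marks HY5 for degradation, fell from 96.0 ± 23.8 to 55.9 ± 4.35 CPM, which is -0.78 on the log2 scale (SE 0.19, edgeR adjusted p = 0.0044). DET1 (Solyc01g056340), the gene of the high pigment-2 mutant and a repressor of light responses, fell from 18.0 ± 2.70 to 10.6 ± 0.920 CPM (log2 -0.76). Its complex partners did not pass the test: DDB1 (Solyc02g021650), the gene of high pigment-1, had a log2 fold change of -0.08 (SE 0.15), and the scaffold CUL4 (Solyc02g021470) one of 0.16 (SE 0.13). Of the 4 genes of this group that could be named, 2 fell and 0 rose (median log2 -0.42). Of all tested genes, 38.5% fell and 33.9% rose. ELIP (Solyc09g082690), an early light-induced protein of the thylakoid and a textbook target of light signalling, was also higher. It had 154.3, 219.5, 30.8 and 142.7 CPM in leaf and 3227, 3561, 2457 and 5804 in trichome, which gives 4.78 on the log2 scale (SE 0.62, edgeR adjusted p = 1.04e-04).

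PHYA (Solyc10g044670, chromosome 10), the receptor for far-red and very weak light, stood at 32.7, 36.5, 31.9 and 30.0 CPM in leaf and 38.6, 52.9, 40.1 and 66.4 in trichome. The groups did not overlap, although the lowest gland library was close to the highest leaf library. The log2 fold change was 0.59 (SE 0.19, edgeR adjusted p = 0.0167). This call was lost with library size alone (log2 0.33, adjusted p = 0.130), without collection 2 (0.0555) and without collection 4 (0.0729), and adjusted p ran from 0.0108 to 0.130 over 21 alternatives. Without collection 4 the log2 fold change was 0.37.

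PHYB1 (Solyc01g059870, chromosome 1), the main red-light receptor of tomato seedlings, had 127.5, 70.5, 81.9 and 135.9 CPM in leaf. In trichome it had 64.8, 65.6, 60.8 and 99.8 CPM. The tissues overlapped, because replicate 4 of the glands lay above leaf replicates 2 and 3. The log2 fold change was -0.51 (SE 0.26, edgeR adjusted p = 0.0979). PHYB1 was lower in trichome in all 4 collections, and with the collection as a block the adjusted p was 0.0455 (log2 -0.49). It was 0.0316 without trichome replicate 4 and 0.0382 without leaf replicate 2. PHYB2 (Solyc05g053410, chromosome 5), its close relative, was clearly separated, with 13.5, 12.4, 13.6 and 15.7 CPM in leaf and 3.25, 4.52, 3.91 and 1.43 in trichome. It fell by 2.07 on the log2 scale (SE 0.31, edgeR adjusted p = 2.73e-04), to 23.7% of its leaf level.

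The blue-light receptor CRY1a (Solyc04g074180, chromosome 4) had 189.0, 155.1, 190.0 and 206.4 CPM in leaf and 59.2, 87.5, 68.0 and 127.1 in trichome. Its log2 fold change was -1.12 (SE 0.24, edgeR adjusted p = 0.0025), and the glands kept 46.1% of the leaf level. CRY2 (Solyc09g090100, chromosome 9) fell further, from 20.01, 22.6, 25.9 and 38.1 CPM in leaf to 2.57, 3.11, 2.99 and 2.47 in trichome. The gland libraries were within a narrow range (CV 11.3%), and the log2 fold change was -3.26 (SE 0.23, edgeR adjusted p = 2.83e-06).

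Of 6 further receptor genes that could be named, 5 fell and 1 rose, with a median log2 fold change of -2.12. PHOT1 (Solyc11g072710), a phototropin that steers growth towards blue light, fell from 249.7 ± 68.3 to 5.68 ± 1.501 CPM (log2 -5.46, SE 0.29, edgeR adjusted p = 6.85e-07). PHOT2 (Solyc01g097770), known in Arabidopsis for moving chloroplasts away from strong light, fell from 701.5 ± 176 to 128.8 ± 55.0 CPM (log2 -2.45). CRY1b (Solyc12g057040), a second cryptochrome 1, fell by 3.53 on the log2 scale, PHYE (Solyc02g071260) by 1.79 and PHYF (Solyc07g045480) by 1.11. CRY3 (Solyc08g074270), a cryptochrome of the DASH type, rose instead, from 31.9, 30.98, 17.9 and 32.9 CPM in leaf to 88.4, 94.8, 64.3 and 134.7 in trichome. Its log2 fold change was 1.75 (SE 0.27, edgeR adjusted p = 3.05e-04). With the 5 receptors above, 8 of 11 receptor genes fell, against 38.5% of all tested genes, and 2 rose, against 33.9%. Those 2 were CRY3 and PHYA, whose call was lost in 3 of 21 alternatives.

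Phytochromes need a bilin chromophore, made from heme in plastids. HO1 (Solyc12g009470), the heme oxygenase of the first step, had 96.3 ± 26.7 CPM in leaf and 75.9 ± 23.0 in trichome, and its log2 fold change of -0.34 (SE 0.26) did not pass the test (edgeR adjusted p = 0.257). AUREA (Solyc01g008930), the phytochromobilin synthase of the last step, fell from 64.7 ± 21.9 to 26.2 ± 5.65 CPM (log2 -1.31, SE 0.26, edgeR adjusted p = 0.0015). Of this pair 1 gene fell and 0 rose, against 38.5% and 33.9% of all tested genes.

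Of the PIF factors, the gene listed as PIF4 (Solyc07g043580, chromosome 7), known for elongation growth in warmth and shade, stood at 132.0, 79.0, 143.9 and 133.4 CPM in leaf and 16.5, 15.9, 16.2 and 13.8 in trichome. All gland libraries lay within a CV of 7.85% and far below the leaf. The log2 fold change was -2.97 (SE 0.21, edgeR adjusted p = 2.45e-06), or 12.8% of the leaf level. The gene listed as PIF1a (Solyc09g063010, chromosome 9), known in tomato fruit as a repressor of carotenoid synthesis, had 37.1, 45.2, 27.8 and 34.7 CPM in leaf and 21.5, 31.4, 16.1 and 30.8 in trichome. These ranges overlapped, and the log2 fold change of -0.54 (SE 0.24) did not pass the test (edgeR adjusted p = 0.0677). PIF1a was lower in trichome in all 4 collections, and with the collection as a block the adjusted p was 0.0155 (log2 -0.57). It was also under the threshold with DESeq2 (0.0493), without leaf replicate 3 (0.0426), without trichome replicate 2 (0.0491) and without trichome replicate 4 (0.0459).

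**Figure D2:**
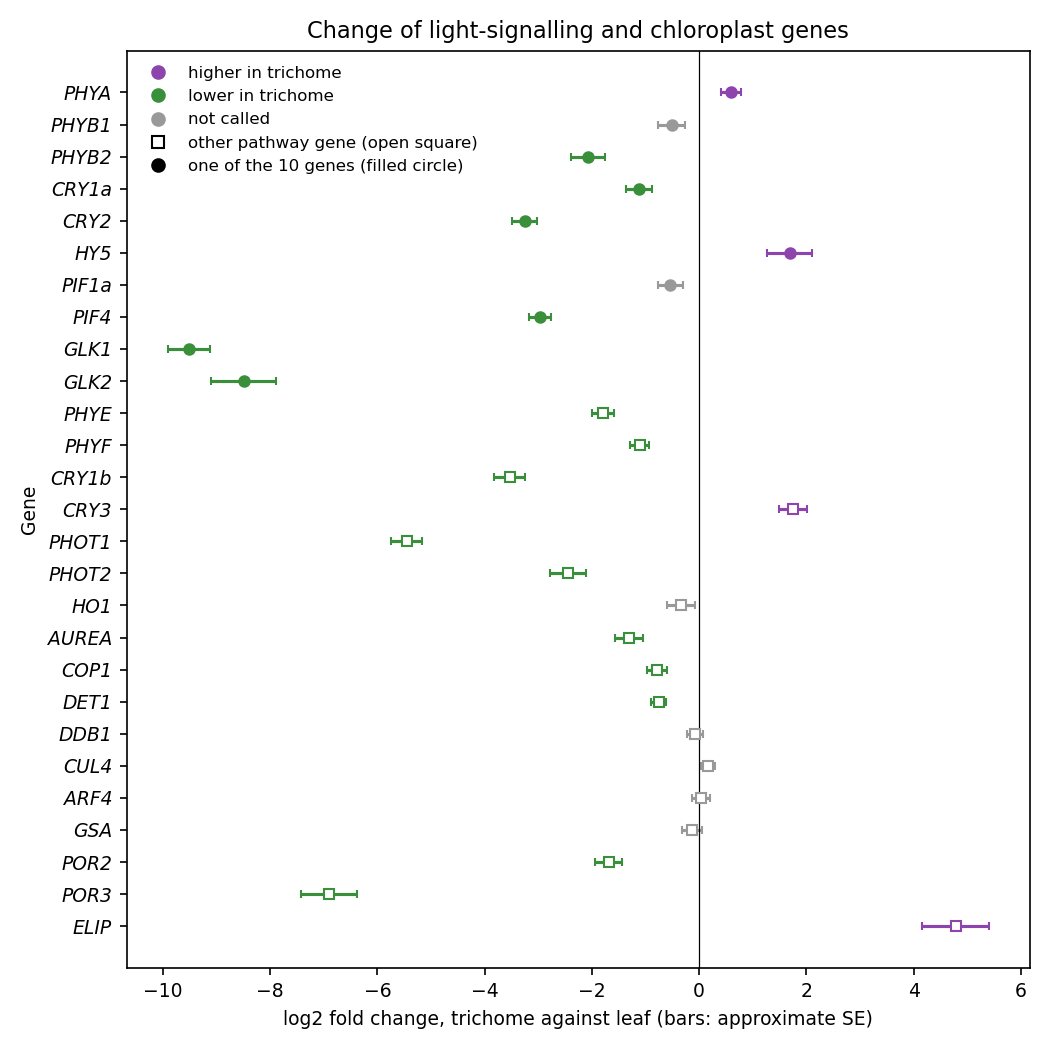
Log2 fold changes of trichome against leaf with approximate standard errors (n = 4 libraries each) for the 10 genes (filled circles) and the other tested pathway genes (open squares); TKN2, with no read in trichome libraries, is left out. GLK1 and GLK2 lie at -9.52 and -8.49, ELIP at 4.78, and grey points did not pass an adjusted p of 0.05.

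Further regulators of chloroplast formation and enzymes of chlorophyll synthesis were set beside the GLK genes. TKN2 (Solyc02g081120), a class I KNOX factor of meristems and compound leaves that acts above GLK2 in tomato fruit, had 15.02, 13.6, 15.9 and 8.23 CPM in leaf and no read in any trichome library. Against a floor of 3 reads over the group it was at least 481-fold lower in trichome, per gene count. ARF4 (Solyc11g069190), an auxin response factor known to limit chloroplast number in tomato fruit, did not pass the test, with 92.6 ± 4.85 CPM in leaf and 95.1 ± 20.7 in trichome. TKN4 (Solyc01g100510), a KNOX relative, had at most 3 reads in any library and was not tested. Of the 2 genes of this group that were tested, 1 fell and 0 rose, against 38.5% and 33.9% of all tested genes.

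Of 14 chlorophyll synthesis genes listed, 3 could be named, and these were unequal. GSA (Solyc04g009200), which makes the precursor of all tetrapyrroles, had 186.0 ± 39.1 CPM in leaf and 170.5 ± 18.3 in trichome (log2 -0.13, SE 0.19, edgeR adjusted p = 0.562). POR2 (Solyc07g054210), a light-dependent protochlorophyllide reductase, fell from 288.2 ± 109 to 89.5 ± 10.5 CPM (log2 -1.69). POR3 (Solyc10g006900), another reductase of this kind, fell from 179.0, 156.4, 548.7 and 296.5 CPM in leaf to 2.72, 2.02, 3.36 and 1.68 in trichome. Its log2 fold change was -6.91 (SE 0.52, edgeR adjusted p = 3.81e-06). Of these 3 genes, 2 fell and 0 rose (38.5% and 33.9% of all tested genes), which leaves the other listed genes of the pathway undescribed. In all, 11 of the 18 tested pathway genes outside the 10 fell and 2 rose, against 38.5% and 33.9% of all tested genes.

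Close relatives were compared with each other inside each library, where the ratio of their counts needs no library scaling and gene length cancels between tissues. The log2 ratio of PHYB1 to PHYB2 counts was 2.86 ± 0.370 in leaf and 4.55 ± 1.05 in trichome (SD, n = 4 each), a difference of 1.69. Gland replicate 4 stood at 6.10 and the other gland libraries between 3.85 and 4.31, above the 2.50 to 3.24 of leaf. With each collection left out in turn, the difference ran from 1.26 to 1.90. That of CRY1a to CRY2 went from 2.83 ± 0.329 to 4.87 ± 0.552, a difference of 2.04, and here too gland replicate 4 was highest, at 5.67 against 4.50 to 4.80. In both pairs the second gene was the one that lost more of its leaf level. PIF1a over PIF4 moved from -1.74 ± 0.663 in leaf to 0.63 ± 0.542 in trichome, a difference of 2.36. Leaf libraries lay between -2.37 and -0.81 and gland libraries between -0.013 and 1.16. The ratio of PHYA to PHYB1 rose from -1.61 ± 0.562 to -0.56 ± 0.182, a difference of 1.05. The ratio of GLK1 to GLK2 went from 4.08 ± 0.703 to 2.35 ± 0.648, but in trichome it rests on at most 7 reads of GLK1 and 1 of GLK2. In gland replicates 2 and 3, which had 0 GLK2 reads, the ratios of 1.58 and 3.17 are the highest that 1 and 4 GLK1 reads allow with 0.5 added, and no test is read for this pair.

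Each of the other 4 ratios separated the tissues without overlap and changed the same way in all 4 collections. How many ratios of other genes would do so was not counted, while 68.3% of all tested genes taken singly did not overlap. The exact two-sided permutation p was 0.0286 for each, the smallest that the 70 arrangements of 4 against 4 allow (adjusted p = 0.0286 over 5 pairs, n = 4 each). With signs exchanged within the 4 collections the exact p was 0.125, the smallest that 16 arrangements allow. PHYB2 was called by itself (log2 -2.07) and PHYB1 was not, so the ratio of this pair adds no evidence of a change in PHYB1.

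**Figure D3:**
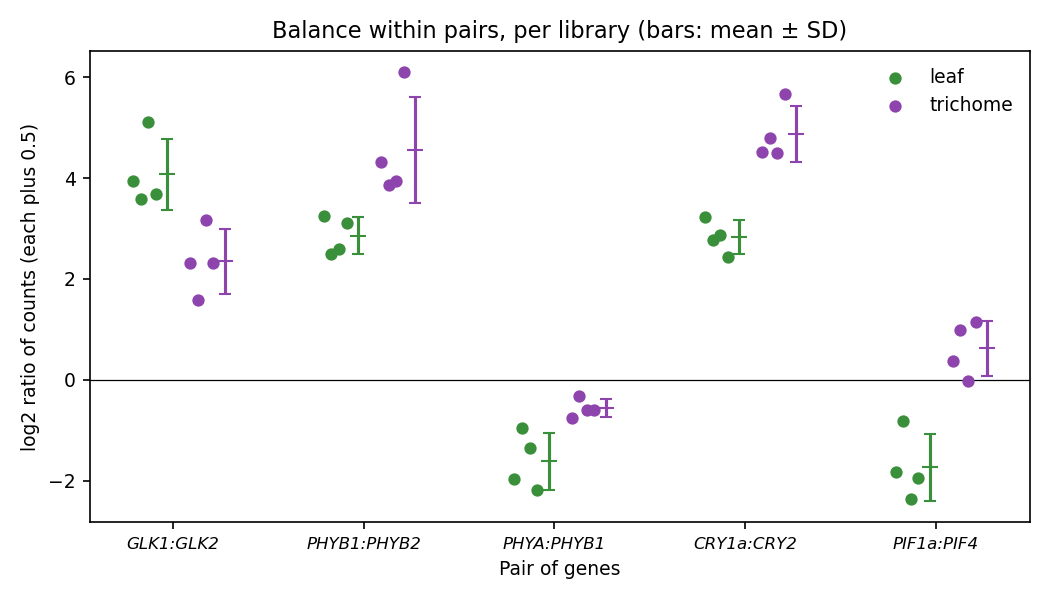
Log2 ratio of the counts of 2 related genes (0.5 added to each) in each leaf (green) and trichome (purple) library, with mean and SD beside the points (n = 4 each). The tissues do not overlap for the 4 pairs other than GLK1:GLK2. The points of GLK1:GLK2 do not overlap either, but its gland ratios rest on at most 7 reads and depend on the 0.5 added. PIF1a:PIF4 goes from a mean of -1.74 in leaf to 0.63 in trichome.

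Profiles over the 8 libraries were compared among the 28 tested genes named here, as the root mean square difference of log2(CPM + 0.5), each gene centred on its own mean. The gene most like HY5 was CRY3, at a difference of 0.45, followed by PHYA at 0.85 and CUL4 at 1.01, while HY5 itself varied by 1.09 about its mean. For GLK1 and GLK2 the added 0.5 exceeds every gland level and largely sets their profiles, and no likeness is given. PIF4 was nearest to CRY2 (0.30), CRY1b (0.52) and PHOT2 (0.54). Such likeness describes these libraries, in which the tissue difference weighs most.

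Libraries of the same tissue also differed from each other. In leaf replicate 3, HY5 (4.37 CPM), CRY3 (17.9) and ELIP (30.8) were at their lowest among leaf libraries, and PHOT1 (352.0), POR2 (446.6) and POR3 (548.7) at their highest. Trichome replicate 3, taken by its number as the same collection, was lowest among gland libraries for HY5, CRY3 and ELIP as well. It was highest for PHOT1 and POR3. Among the 28 genes, 12 (42.9%) were lowest in leaf replicate 3 and 11 (39.3%) in trichome replicate 3, against 22.5% and 17.7% of all tested genes. Leaf replicate 2 was lowest for nearly as many, 11 (39.3%, against 26.2% of all tested genes). Collection 3 was lowest in both tissues for 9 genes: HY5, PIF1a, PHYF, CRY3, HO1, AUREA, DET1, DDB1 and ELIP. Of all tested genes, 6.01% were lowest in collection 3 in both tissues. PHOT1 and POR3, highest there in both, make 7.14% of the 28 genes, close to the 6.34% of all tested genes. This collection was singled out after its values were seen, and the hour of sampling is not given in the sources used here.

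**Figure D4:**
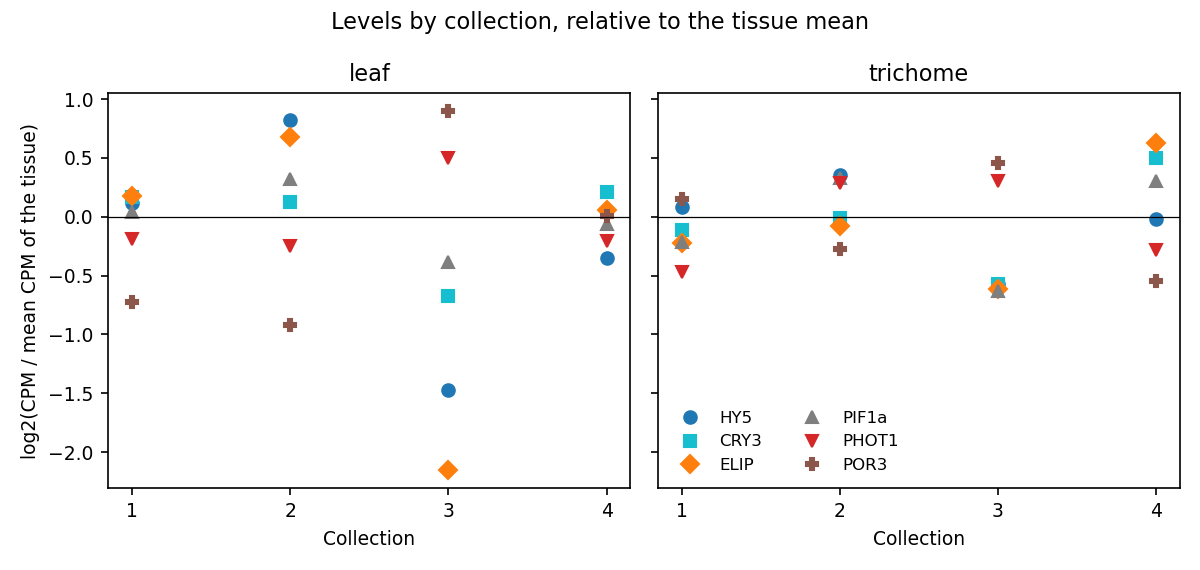
CPM of 6 genes by collection, as log2 of the level over the mean of the 4 libraries of that tissue, in leaf (left) and trichome (right). In collection 3, HY5, CRY3, ELIP and PIF1a lie lowest in both tissues and PHOT1 and POR3 highest; the leaf level of ELIP there is 30.8 CPM against 142.7 to 219.5 in the other leaf libraries.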

How the data were processed

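RNA-seq libraries from 4 leaf and 4 trichome samples were analysed. The authors deposited raw HTSeq read counts per gene; Trimmomatic, TopHat2, SAMtools and HTSeq are named per the submitters' processing notes, which give no versions. The genome build, the annotation and the strand setting were not given in the sources used here, so antisense and overlapping genes and near-identical copies stay uncertain. Per the labels' protocols, RNA was taken with RNeasy and sequenced as TruSeq libraries. HTSeq's 5 summary lines (13.3% ± 0.829 of reads in leaf and 21.1% ± 2.61 in trichome, SD, n = 4) stayed out of totals and tests.

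From the counts, edgeR 4.0.16 in R 4.3.3 gave quasi-likelihood tests over all genes (TMM factors, filterByExpr, no block, Benjamini-Hochberg over 20409 genes, all 10 genes included). Approximate standard errors were taken from the log2 fold change and its F statistic. Relatives were compared by exact permutation tests (Python 3.11.15). Recovery was tested on simulated data with 20188 genes. Of 50 genes changed by 2 on the log2 scale 44 were recovered, and of 50 changed by -2, 46. Of 50 changed by 1, 18 were recovered, and of 50 changed by -1, 10, with 5 false calls in all. Only these genes were changed, a far smaller share than the 72.4% called in the data, so this recovery need not carry over.

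No ID matched the RefSeq table (assembly SLM_r2.1) directly. Names were accepted at a matching chromosome and a relative position within 5 percentage points. Of 47 further pathway IDs listed, 19 passed. The other 28 had no matching symbol or position and were not used, PIF and B-box relatives and most chlorophyll synthesis genes among them. Genes and lists were chosen with earlier results of these data known. By the naming rule the text gives all 10 genes, the accepted members of lists of at most 7, and of the longer chlorophyll list the called ones; GSA falls outside it and was added after its values were seen.

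Same-numbered libraries were taken to share a collection, and by the protocols leaves and glands came from the same plants. The match rests on the replicate numbers, and the labels state no block. Deviations of same-numbered libraries correlated at 0.076 to 0.221, and those of differently numbered ones at -0.249 to 0.145, ranges that overlap. The block was run as an alternative. Others were upper-quartile and RLE factors, no factors (library size alone), 2 other filters, DESeq2 1.42.0, limma-voom (limma 3.58.1), leaving out libraries or collections, and leaving out the 100 most abundant genes. The labels call the 4 collections independent. PCR copies were not marked by molecular identifiers, so intervals and floors hold for counting error alone.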

Additional observations from a re-analysis of the deposited data

Results flagged for a closer look

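Among 67 sets of 4 libraries (each gene or ratio in each tissue), 5 held a library far from the other 3, and chance alone marks about 1 in 20 such sets. PHYB1 stood at 99.8 CPM in trichome replicate 4, against 60.8 to 65.6 in the other gland libraries. PHYF stood at 17.9 CPM in the same library, against 13.8 to 14.01. Both levels are TMM-scaled, with a factor of 0.773 for trichome replicate 4, against 0.928 to 1.02 for the other gland libraries. In reads, PHYF had 371, 318, 375 and 363 in trichome replicates 1 to 4, so replicate 4 was not the highest. PHYB1 had 1716, 1497, 1648 and 2024 reads. The flags were not repeated without TMM factors. GLK2 was at 4.62 CPM in leaf replicate 3, against 10.2 to 11.3 in the other leaf libraries, and CRY3 at 17.9 there, against 30.98 to 32.9. PHOT1 was at 352.0 CPM in leaf replicate 3, against 210.5 to 219.5.

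Without the library concerned, the log2 fold change was -0.72 for PHYB1, which then passed the test, -1.22 for PHYF, -8.72 for GLK2, 1.56 for CRY3 and -5.27 for PHOT1. The last 4 were called with and without that library.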

How the results depend on the processing

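HY5, PHYB2, CRY1a, CRY2, PIF4, GLK1 and GLK2 kept their direction and their call in all 21 alternatives; the fold change of GLK2 ran from -9.03 to -7.88, the latter with limma-voom. PHYA lost its call with library size alone (log2 0.33), and its log2 fold change ran from 0.37 to 0.69 with a library or collection left out. This scaling moved the median of all genes by -0.215, and 38.6% of called genes were then higher in trichome, against 46.9%. PHYB1 gained a call with upper-quartile factors (log2 -0.62), library size alone (-0.73), the 5 CPM filter (-0.62) and the replicate block (-0.49), and ran from -0.72 to -0.36 with libraries or collections left out. PIF1a gained one with the same settings (-0.65, -0.80, -0.64 and -0.57) and with DESeq2 (-0.59), and ran from -0.68 to -0.37. The replicate block changed no other call of a single gene. Of the 10 genes, 1 or 2 were higher in trichome, 1 of them with library size alone, and 6 to 8 were lower. Of the chromophore pair, 2 fell with library size alone, when HO1 was called (-0.58). ELIP is itself among the 100 most abundant genes, so leaving these out leaves 0 called in its place.

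With signs exchanged within collections the exact permutation p was 0.125 for the ratios PHYB1:PHYB2 (1.69), CRY1a:CRY2 (2.04), PIF1a:PIF4 (2.36) and PHYA:PHYB1 (1.05). The 16 arrangements cannot give less. The difference for GLK1:GLK2 was -1.73, or -2.25 with 1 in place of 0.5 added, and no test is read for that pair. Uncalled genes near 0 changed sign: CUL4 with library size alone (-0.069), GSA without collection 2 (0.025, range -0.27 to 0.025), and ARF4 with RLE (-0.030), DESeq2 (-0.030), upper-quartile (-0.057), the 5 CPM filter (-0.055) and library size alone (-0.15), and from -0.12 to 0.13 with libraries left out. The number of all genes called ran from 10944 to 16208. The causes were not tested. Depth limits GLK2 and GLK1 in trichome, where 3 reads stand for 0.111 to 0.148 CPM.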

Other observations

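Trichome replicate 4 held the highest gland level for 16 of the 28 genes, such as PHYA, PHYB1, CRY1a, CRY3, PHOT2 and ELIP, and the lowest for 5, namely PHYB2, CRY2, PIF4, ARF4 and POR3. Over all tested genes it was highest for 32.9% and lowest for 38.4%. Its TMM factor was 0.773, against 0.928 to 1.02 for the other gland libraries. In leaf, replicate 4 was highest for 11 of the 28 genes (39.3%, against 27.9% of all tested genes). Leaf replicate 1 was highest for 7 (25%, against 19.3%). In both tissues collection 4 was highest for PHYB1, CRY1a, GLK2, CRY1b, CRY3, PHOT2, DET1 and CUL4, 8 of the 28 genes, against 10.8% of all tested genes. For GLK2 this rests on 1 read in the gland library. The collection was picked after its values were seen.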
